A study of Mus musculus with 380 samples.

Results

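Cell cycle genes of S phase and of mitosis were followed in mouse thymic epithelial cells (TECs), the stromal cells that support and select developing T cells. The 51 genes were chosen by name, with earlier results of these data known. Of them 22 have roles in DNA replication and 29 in mitosis. Every one was present among the 30324 gene loci of the deposited tables. Replication and mitotic genes are reported apart. The series holds 380 CEL-Seq2 libraries of single TECs sorted as EpCAM+CD45- cells, of which 378 were used, and 25154 cells passed the quality limits, 23585 of them from libraries without a further surface sort.

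These unsorted cells were treated as coming from 10 animals. In the non-barcoded WT male, 4 libraries labelled as biological replicate appear to come from another, female animal, as described below. The wild-type (WT) animals were 1 female at embryonic day E16.5, 1 female at birth (P0), 4 animals at P28 and 1 female at 1 year. By the labels, the P28 WT animals were 2 males, 1 of them without the barcoding alleles, and 2 females with them, called female A and female B. The transgenic animals carried *Fgf7* under the *Foxn1* promoter, so that TECs made the growth factor themselves: a non-barcoded male at P28, labelled as FVB/N backcrossed to C57BL/6J, a barcoded female at P28 and a barcoded male at 1 year. All barcoded animals, WT and transgenic alike, also carried hU6-sgRNA-Hprt, *Foxn1-cre* and Rosa26-LSL-Cas9-EYFP, which mark lineages by cutting *Hprt*. The volume of each well was split in barcoded animals, whereas the whole volume served the transcriptome of the non-barcoded WT male; the non-barcoded transgenic male was put with it in the fits because it carries no barcode. All animals but that transgenic male are labelled C57BL/6. WT at E16.5, P0 and 1 year and the transgene at 1 year rest on 1 animal each, and sex differs between ages. The spread behind the p-values comes from the P28 animals only, and the lone animals of the other ages are assumed to vary like them. The labels number females A and B as individual animals, and the study describes the P28 WT animals as single mice. The *Fgf7* transcript itself was at 47.4 and 100.2 transcripts per 1000000 (CPM, the unit of every level here) in the P28 transgenic animals and 20.3 in the 1-year one, against 0.176 to 6.31 in the 7 WT animals. The barcoded transgenic animals of both ages are described as WT in the free text of their labels and as Fgf7 tg in the genotype label, and the *Fgf7* level of 100.2 in the P28 female was the highest of all.

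A dividing cell copies its DNA in S phase and separates the copies in mitosis. Replication genes are switched on at the border of G1 and S phase, largely by E2F transcription factors: *Mcm2* to *Mcm7* encode the helicase that opens the DNA, *Cdc6*, *Cdt1* and *Mcm10* load and start it, *Pcna* encodes the sliding clamp of the polymerases, and *Rrm1*, *Rrm2* and *Tk1* supply nucleotides. Mitotic genes peak later, under factors that bind CHR and CCAAT elements: *Cdk1*, *Ccnb1* and *Ccnb2* form the kinase that starts mitosis, *Aurka*, *Aurkb*, *Plk1*, *Bub1* and *Bub1b* are mitotic kinases or checkpoint proteins, *Ube2c* and *Cdc20* act in the ubiquitin ligase that ends mitosis, and *Mki67* and *Top2a* are the common markers of cycling cells. The embryonic thymus grows fast and the adult organ shrinks with age, so the share of cycling TECs is a basic measure of the tissue.

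The promoters of 4 members are shown because they carry, or lack, the letters by which the replication and mitotic lists differ. They come from RefSeq in build GRCm38.p6, each written 5′ to 3′ on the gene's strand. Each holds 250 bases before and 50 after the start of the gene. Capitals mark only E2F letters in *Mcm5* and *Pcna*, and only CHR and CCAAT letters in *Ccnb1* and *Cdc20*. *Mcm5* lies at chr8:75109259-75109558 on the plus strand, and *Pcna* (chr2:132253131-132253430), *Ccnb1* (chr13:100786437-100786736) and *Cdc20* (chr4:118437294-118437593) on the minus strand.
Mcm5: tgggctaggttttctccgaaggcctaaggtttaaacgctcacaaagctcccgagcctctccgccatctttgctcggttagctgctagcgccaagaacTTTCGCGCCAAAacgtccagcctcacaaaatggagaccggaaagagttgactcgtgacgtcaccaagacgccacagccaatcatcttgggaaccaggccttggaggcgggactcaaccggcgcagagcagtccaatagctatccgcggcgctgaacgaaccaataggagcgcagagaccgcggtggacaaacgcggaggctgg
Pcna: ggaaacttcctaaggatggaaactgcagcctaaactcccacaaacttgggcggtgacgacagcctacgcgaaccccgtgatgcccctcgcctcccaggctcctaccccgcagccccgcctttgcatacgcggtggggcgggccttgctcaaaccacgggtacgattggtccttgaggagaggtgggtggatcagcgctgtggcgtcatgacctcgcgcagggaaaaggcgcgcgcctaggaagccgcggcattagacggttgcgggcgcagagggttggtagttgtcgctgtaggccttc
Ccnb1: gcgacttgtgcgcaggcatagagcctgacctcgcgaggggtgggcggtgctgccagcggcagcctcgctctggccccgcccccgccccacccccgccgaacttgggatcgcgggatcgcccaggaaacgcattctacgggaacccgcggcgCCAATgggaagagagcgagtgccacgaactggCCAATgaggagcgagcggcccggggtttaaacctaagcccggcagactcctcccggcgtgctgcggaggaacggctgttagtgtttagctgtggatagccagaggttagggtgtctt
Cdc20: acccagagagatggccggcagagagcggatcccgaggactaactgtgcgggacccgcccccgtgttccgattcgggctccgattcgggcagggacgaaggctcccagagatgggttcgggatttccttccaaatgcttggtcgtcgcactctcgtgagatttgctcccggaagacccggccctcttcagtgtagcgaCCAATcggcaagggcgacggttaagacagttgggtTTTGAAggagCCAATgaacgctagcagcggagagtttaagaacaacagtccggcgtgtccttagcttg
In *Mcm5*, TTTCGCGC and the reverse complement of TTTGGCGC overlapped, the second of them beginning 149 bases before the start. *Pcna* held none of the E2F letters in this window. CCAAT letters also stood in the promoters of *Mcm5* and *Pcna*, where they are not marked. *Cdc20* held TTTGAA 18 bases before the start between 2 CCAAT boxes, and *Ccnb1* held 2 CCAAT boxes and no CHR letters.

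The letters searched on both strands were TTTCGCGC, TTTGGCGC and TTTCCCGC for E2F, TTTGAA and TTCGAA for CHR, and CCAAT. Of the members, 18 replication and 24 mitotic genes were matched to the promoter table by symbol. E2F letters stood in 44.4% of these replication genes and 8.33% of the mitotic ones, against 2.12% of all 27025 genes in the table. CHR letters stood in 83.3% of mitotic and 11.1% of replication genes (21.7% of all genes), and CHR with CCAAT in 1 promoter in 75% and 11.1% (8.61% of all genes). CCAAT alone stood in 61.1% of replication, 83.3% of mitotic and 41.1% of all genes. These are counts of letters and not of binding.

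**Figure D1:**
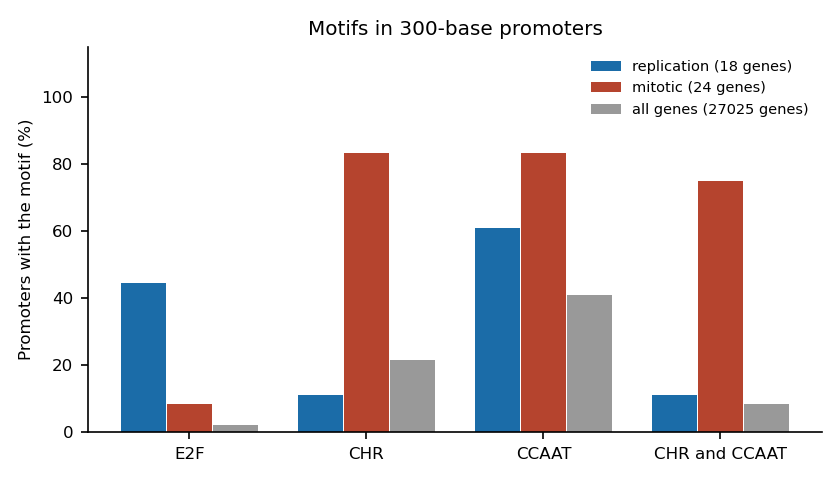
Percent of genes with each motif in a promoter of 300 bases, for the 18 replication genes, the 24 mitotic genes and all genes of the RefSeq table. E2F letters were most frequent in replication genes and CHR letters in mitotic genes.

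Several libraries stood apart. Thymocytes can divide, and the CD45- gate should remove free ones. The paper also describes thymic nurse cells, which are cortical TECs with enclosed thymocytes. It holds that these thymocytes likely add to the proliferative signature of that cluster. Cells with at least 2 transcripts of 14 thymocyte markers (*Cd3e*, *Cd4*, *Rag1* and others) at a common depth of 1000 unique molecular identifiers (UMIs) made up 16.99% of cells of P28 WT female B, against 1.13%, 5.48% and 2.29% in the other P28 WT animals, 0.275% at E16.5, 5.97% at P0, 1.42% and 0.980% at 1 year, and 0.762% and 4.45% in the P28 transgenic animals. The 14 markers were all detected in every animal, with a summed level of 90.5 to 1228 CPM in P28 WT and 109.7 to 404.7 in P28 transgenic animals. In female B the marked cells held 2650 CPM of replication transcripts and the unmarked cells 707. Most comparisons of unsorted cells are therefore also given without these cells, and their part in the other values was not tested. Leaving out marked cells may also remove nurse cells, and how many marked cells are nurse cells was not tested. Next, 4 libraries of the non-barcoded WT male, labelled as biological replicate, held *Xist* at 311.996 to 444.02 CPM against at most 4.03 in its 16 other libraries, and their levels were 369 (replication) and 963 (mitotic) against 431 and 708. *Xist* was at 102.05 to 248.7 CPM in the animals labelled female and at 0.241 to 0.629 in the other males. The labels give these 4 libraries to a male, but by *Xist* they resemble the females and not the 16 other libraries. No other test of their origin was made. The sample called the non-barcoded WT male thus appears to pool a male with a female animal, and each n here counts it as 1. Last, markers of parathyroid cells (*Pth* and 3 others) reached 25923 CPM in the 1-year WT female, against 7.93 to 1980 in the other 9 animals. Fibroblast markers were also highest there, at 1630 CPM (55.3 to 757 in the others), and the 5 TEC markers (*Epcam*, *Foxn1* and others) were detected in all 10 animals. Median UMIs per cell ranged from 3110 to 10665 by animal, and 337 of 25154 cells (1.34%) had the same well barcode as their most similar cell in another library of that animal (1 in 96 is 1.04%).

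The summed level of both lists was highest at E16.5. Among WT animals it was lowest at 1 year, whereas the lowest replication sum of all was that of the non-barcoded transgenic male at P28. The 29 mitotic genes together reached 3018 CPM at E16.5, 1242 at P0, 741, 872, 853 and 1067 in the 4 P28 WT animals (883 ± 135, SD, n = 4) and 449.1 at 1 year. The 22 replication genes reached 1288 at E16.5, 737 at P0, 423.1, 683, 579.4 and 1055 at P28 (685 ± 268.8, SD, n = 4) and 409 at 1 year. The E16.5 value lay above all P28 WT animals in both lists, whereas the P0 value lay inside the P28 range for replication genes and above it for mitotic genes. In the transgenic animals the mitotic sum was 604 and 856 at P28 and 275 at 1 year, and the replication sum 350 and 626.6 at P28 and 424 at 1 year. Relative to the P28 WT mean, mitotic genes stood at 3.42 at E16.5, 1.41 at P0 and 0.509 at 1 year, and replication genes at 1.88, 1.08 and 0.597. The ratio of replication to mitotic transcripts was 0.427 at E16.5, 0.593 at P0, 0.571 to 0.989 at P28 WT, 0.910 in the 1-year WT female and 1.54 in the 1-year transgenic male. Counting error was small beside these spans (95% Poisson interval at E16.5 1273 to 1303 for replication and 2996 to 3041 for mitotic genes), and covers counting error only. In such sums fewer cycling cells and less RNA per cycling cell cannot be told apart. The least number of transcripts for a kept cell also differed by age. It was 3000 at E16.5, at P0 and in the 1-year transgenic animal, 1500 at P28 and 1000 in the 1-year WT female. The part of these limits in the values by age was not tested.

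**Figure D2:**
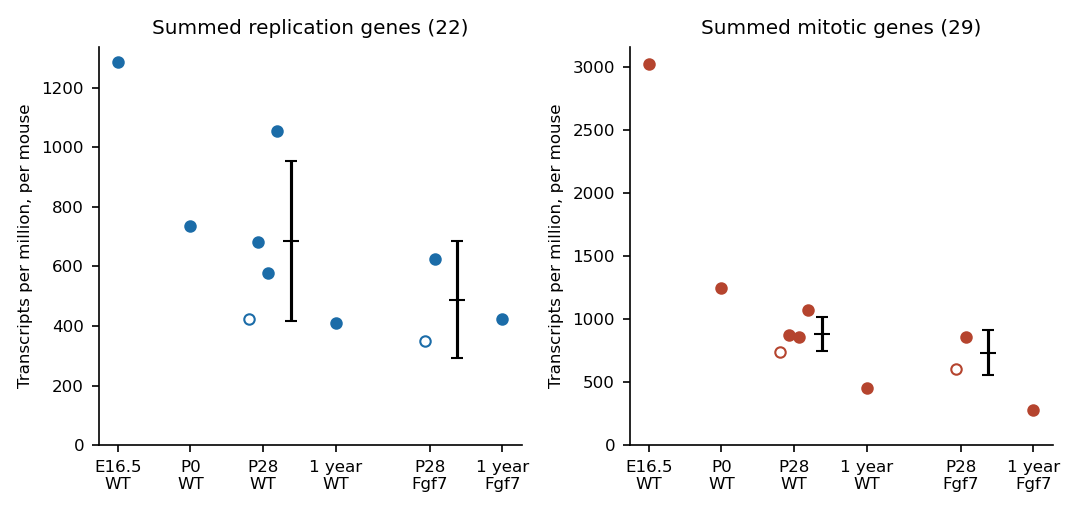
Summed CPM of the 22 replication (left) and 29 mitotic genes (right), one point per animal; open points mark the whole-volume protocol, and bars give mean ± SD where a group has more than 1 animal. The mitotic sum was 3018 at E16.5, 449.1 in the 1-year WT female and 275 in the 1-year transgenic male.

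Gene by gene, E16.5 was the highest of the 10 animals for all 29 mitotic genes and for 18 of 22 replication genes, against 15.1% of the 22471 genes tested. The other 4 replication genes were *Pcna*, *Mcm7*, *Cdc6* and *E2f1*, which were highest in P28 WT female B. By molecules counted at the 3′ end, which are not scaled by gene length, the highest mitotic member at P28 WT was *Top2a*, the topoisomerase that untangles chromosomes, at 321 CPM at E16.5, 124 at P0, 84.8, 99.3, 68.9 and 118 at P28 WT, 42.1 in the 1-year WT female, 53.1 and 92.8 in the P28 transgenic animals and 31.2 in the 1-year transgenic male. *Pcna*, the highest replication member on the same scale, was at 144 at E16.5, 97.9 at P0, 38.1, 123, 82.4 and 147 at P28 WT and 50.4 at 1 year. *Pcna* is uncertain, because the locus *Pcna-ps2* held 15168 UMIs against 16954 for *Pcna* and followed it across cells with r = 0.935. Among the 4 P28 WT animals, female B had the highest sum of both lists, at 1055 CPM for replication and 1067 CPM for mitotic genes. Across cells of the unsorted libraries, the gene most like *Mki67* was *Top2a* (r = 0.827), and the gene most like *Ccnb1* was *Ube2c* (r = 0.847), whereas *Mcm5* was most like *Mcm6* (r = 0.692); these correlations share the libraries and the depth of each cell.

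**Figure D3:**
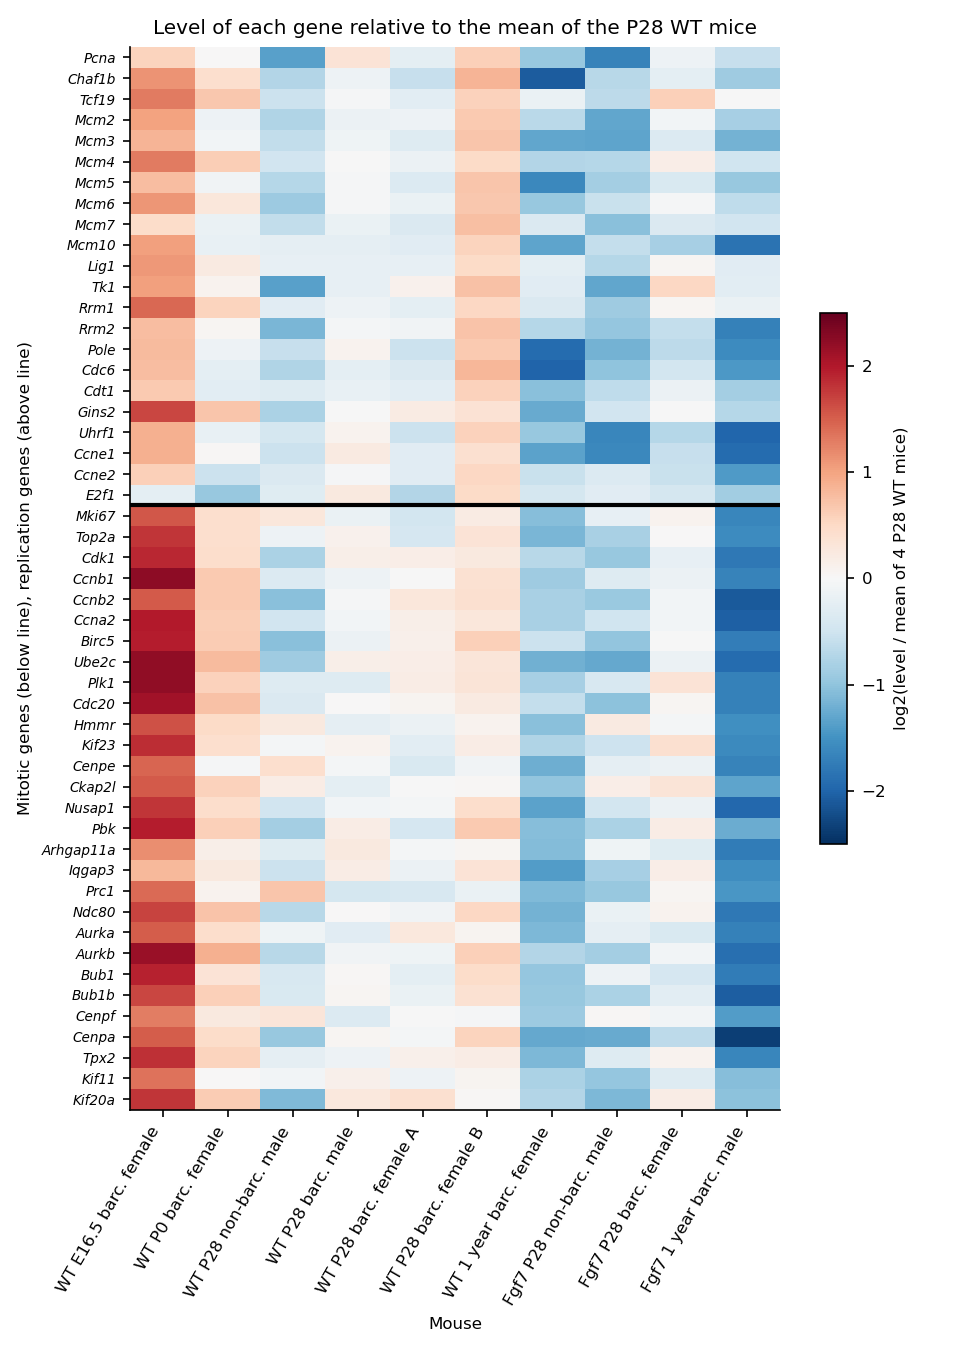
Level of each of the 51 genes in each of the 10 animals, as log2 of the level over the mean of the 4 P28 WT animals; replication genes are above the line and mitotic genes below. The E16.5 column is highest for 29 of 29 mitotic and 18 of 22 replication genes, against 15.1% of all genes tested.

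The first comparison asked how cycling in the embryonic organ differs from that at P28. All 29 mitotic genes were higher at E16.5, where 13.1% of the 22471 genes tested were higher, with a median log2 fold change of 1.98 (all genes, -0.34). The test was edgeR's quasi-likelihood test over all 10 animals, with the protocol as covariate and Benjamini-Hochberg adjusted p below 0.05, and the lone E16.5 animal is assumed to vary like the others. *Ccnb1*, cyclin B1, stood at 124 CPM at E16.5 and at 20.98, 24.2, 26.2 and 34.6 at P28, without overlap. Its log2 fold change of 2.46 ± 0.24 (SE; adjusted p = 0.00224, edgeR) was the highest of all members, before that of the mitotic kinase gene *Plk1* (2.40 ± 0.26). *Ube2c*, the ubiquitin-conjugating enzyme of the anaphase-promoting complex, stood at 379 against 43.9, 89.8, 90.8 and 100.7 (log2 fold change 2.31 ± 0.18, adjusted p = 0.0018, edgeR). *Aurkb* (2.29 ± 0.31) and *Cdc20* (2.24 ± 0.23) came next on the log2 fold change scale. Of the other members, *Birc5* (2.07 ± 0.28), *Cdk1* (2.02 ± 0.20), *Top2a* (1.99 ± 0.27), *Mki67* (1.90 ± 0.26) and *Aurka* (1.81 ± 0.32) are given as examples. The make-up of the TECs also differed: the 6 markers of cortical TECs summed to 4741 CPM at E16.5 and 8184 at P0 against 445.2 to 2628 at P28 WT, and the 7 markers of medullary TECs to 835 and 575 against 3087 to 4286, and their part in the results at E16.5 and P0 was not tested. The smallest change was that of *Iqgap3*, a scaffold protein, at 0.94 ± 0.26 (adjusted p = 0.0311, edgeR).

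Of the replication genes, 8 of 22 were higher at E16.5 and 14 did not pass the test, with a median of 1.02. *Gins2*, a subunit of the replicative helicase, rose the most: it stood at 48.7 CPM at E16.5 and at 8.82, 15.2, 17.6 and 19.8 at P28 (log2 fold change 1.82 ± 0.29, adjusted p = 0.0066, edgeR). *Rrm1* (1.60 ± 0.28), *Mcm4* (1.44 ± 0.25), *Tcf19* (1.40 ± 0.32), *Lig1* (1.27 ± 0.28), *Mcm6* (1.25 ± 0.33), *Mcm2* (1.10 ± 0.33) and *Tk1* (1.05 ± 0.32) were also called. *Mcm5* (0.93 ± 0.36), *Rrm2* (0.92 ± 0.39), the cyclin E genes *Ccne1* (1.01 ± 0.39) and *Ccne2* (0.86 ± 0.43) and *Pcna* (0.60 ± 0.29) did not pass. *E2f1*, the transcription factor of S-phase entry, stood apart at 16.52 CPM at E16.5 against 15.8, 23.3, 11.8 and 27.3 at P28, inside the P28 range (log2 fold change 0.02 ± 0.46). The number of replication genes called moved both ways: it fell without the protocol covariate or without some single animals, and rose in the cases that follow. The count without female B is given for members only, with no share of all genes beside it. Without thymocyte-marked cells 20 of 22 replication genes were higher, where 14.5% of all genes were, and without female B 13 were. Among pathway genes that are no members, 47 of 50 mitotic and 20 of 40 replication genes were higher and none was lower; *Racgap1*, of the spindle midzone, rose by 3.09 ± 0.21. Of 12 regulators of G1, 5 were higher and 2 lower (16.4% of all genes tested were lower). One of the lower ones was the cyclin D1 gene *Ccnd1*, which fell by 3.07 ± 0.39 on the log2 scale.

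At P0, 2 of 29 mitotic genes were higher than at P28 WT, near the 6.53% of all genes tested that were. They were *Ube2c* at 140.9 CPM (log2 fold change 0.85 ± 0.19) and the spindle gene *Ckap2l* at 34.3 (0.88 ± 0.24). The counts without single animals and by DESeq2 that follow are given for members only, with no share of all genes. All 29 estimates were positive, with a median of 0.70, and 16 had an unadjusted p below 0.05. No replication gene passed (median 0.05, with 4 below an unadjusted p of 0.05); *E2f1* had the lowest estimate, -0.72 ± 0.49. The mitotic count rests on single animals: it was 0 without the P28 barcoded male, female A or female B in turn, and 7 without the non-barcoded WT male or either P28 transgenic animal. DESeq2 called 3 mitotic and 0 replication genes. Without thymocyte-marked cells 7 mitotic genes and 1 replication gene were higher, where 6.23% of all genes were.

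**Figure D4:**
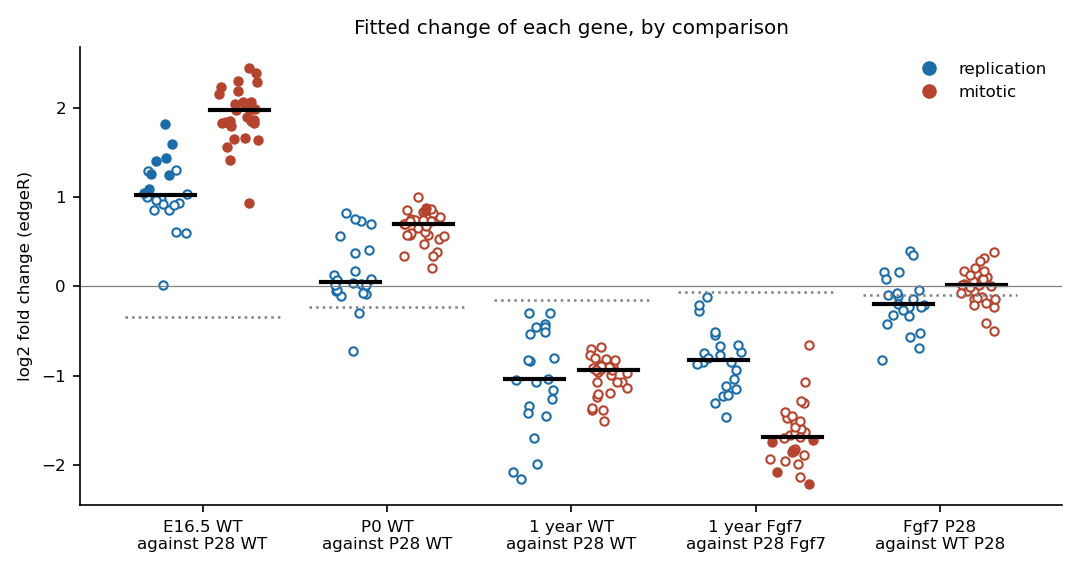
Log2 fold change of each gene from edgeR in 5 comparisons, replication genes in blue and mitotic genes in red; filled points passed an adjusted p of 0.05, black bars are medians of the list and dotted lines the median of all genes tested. All 29 mitotic genes passed at E16.5, 2 at P0, near the share of all genes that were higher there, and 5 in the 1-year against P28 transgenic comparison.

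At 1 year, the estimates of all 51 genes were below those of P28 WT, yet none passed the adjusted test, where 0.0134% of all genes were lower. The median log2 fold change was -1.04 for replication and -0.94 for mitotic genes (all genes, -0.15). The unadjusted and DESeq2 counts that follow are given for members only, with no share of all genes beside them. An unadjusted p below 0.05 was found for 12 of 22 replication and 24 of 29 mitotic genes, and DESeq2 called 3 and 6. Without thymocyte-marked cells none passed either (0.0268% of all genes were lower), and 10 replication and 19 mitotic genes had an unadjusted p below 0.05. *Ube2c* came closest, at 35.3 CPM against 43.9 to 100.7 at P28 (log2 fold change -1.37 ± 0.23, adjusted p = 0.0706, edgeR). The lowest estimates were those of replication genes of low level, *Chaf1b* (-2.16 ± 0.67, 17 UMIs in the 1-year animal) and *Cdc6* (-2.08 ± 0.67, 13 UMIs). The level lay below every P28 WT animal for 15 of 22 replication and 25 of 29 mitotic genes, and for 33.7% of all genes tested. Parathyroid markers were at 25923 and fibroblast markers at 1630 CPM in this animal, and their part in the values was not tested.

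In transgenic animals 5 of 29 mitotic genes were lower at 1 year than at P28, where 0.538% of all genes tested were, and no replication gene passed (4 had an unadjusted p below 0.05). The mitotic genes called were *Ccnb2* (-2.22 ± 0.35), *Ccna2* (-2.09 ± 0.30), *Ube2c* (-1.84 ± 0.25), *Tpx2* (-1.74 ± 0.28) and *Cdk1* (-1.73 ± 0.28, adjusted p = 0.039, edgeR), on the log2 scale. *Cdk1*, the mitotic kinase, stood at 40.4 and 67.05 CPM at P28 and at 22.4 at 1 year, and *Ccna2*, cyclin A2, at 28.7 and 38.8 against 9.93. The 1-year level lay below both P28 animals for 28 of 29 mitotic and 13 of 22 replication genes, and for 28.3% of all genes tested. The median was -1.69 for mitotic and -0.83 for replication genes, and *Rrm1* (-0.12 ± 0.35), *Mcm7* (-0.21 ± 0.45) and *Lig1* (-0.27 ± 0.34) had the smallest estimates. Other cells differed between these animals too. Fibroblast markers were at 757 CPM at 1 year against 132 and 250.8 at P28, and parathyroid markers at 1980 against 528.9 and 7.93. Markers of medullary TECs were at 5841 against 1929 and 1786 CPM, and those of cortical TECs at 509 against 1370 and 7218; their part in the result was not tested. Without thymocyte-marked cells 8 mitotic genes were lower, where 0.549% of all genes were, and no replication gene (8 had an unadjusted p below 0.05). The count of 5 depends on the animals and the tool: it was 0 without any 1 of the 3 barcoded P28 WT animals, 17 without the non-barcoded WT male, 18 without the non-barcoded transgenic male, 0 without the protocol covariate and 23 by DESeq2. The number of all genes called, in either direction, moved with it: it was lower than in the test as fitted without each of the barcoded P28 WT animals (72 without the male) and without the covariate (2), and higher in the other cases, at 734 without the non-barcoded WT male, 733 without the non-barcoded transgenic male and 1232 by DESeq2. The difference between the transgenic and the WT change to 1 year, a contrast added after the data were seen, passed for no member (0.0134% of all genes were called). Its median was -0.63 for mitotic genes, with 28 of 29 below 0, and 0.18 for replication genes, and 6 mitotic and 0 replication genes had an unadjusted p below 0.05 (DESeq2 called 0 members). Without thymocyte-marked cells no member passed either, with 9 mitotic and 0 replication genes below an unadjusted p of 0.05.

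At P28 no member passed the test in the comparison of 2 transgenic with 4 WT animals, where 0.583% of all genes did; 1 of 51 had an unadjusted p below 0.05, and DESeq2 called 0. Without thymocyte-marked cells no member passed either (0.75% of all genes did), with 2 replication genes and 1 mitotic gene below an unadjusted p of 0.05. The median was -0.20 for replication and 0.02 for mitotic genes (all genes, -0.09). *Mki67* stood at 70.7 and 86.2 CPM in transgenic and 99.8, 72.9, 58.99 and 94.7 in WT animals, with full overlap (log2 fold change 0.08 ± 0.22), and *Top2a* gave -0.13 ± 0.23. Both transgenic animals lay below all 4 WT animals for *Uhrf1*, *Pole*, *Mcm10* and *Ccne1* of the replication and *Kif11* of the mitotic genes, and for 12.3% of all genes tested. *Uhrf1* was at 11.9 and 22.5 CPM against 25.6 to 55.6, and *Kif11*, a spindle motor, at 13.1 and 20.5 against 23.5 to 28.02 (log2 fold change -0.41 ± 0.20, adjusted p = 0.417, edgeR). The estimates reached from -0.82 ± 0.30 for *Uhrf1*, which guides maintenance DNA methylation, to 0.39 ± 0.26 for *Tcf19*. Within protocols, the transgenic sum over the WT sum was 0.827 (whole volume) and 0.811 (split) for replication genes, and 0.814 and 0.920 for mitotic genes; the whole-volume ratio compares 1 animal with 1.

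Cells were then counted, among cells kept at limits of transcripts per cell that differed by age, as given above. A cell was counted as expressing a list when it held at least 3 UMIs of it after thinning to 1000 UMIs, which left 22399 of the unsorted cells; 7.90% of cells without the tuft cell gene *Trpm5* passed for mitotic and 5.52% for replication genes, against 2.40% (8 cells) and 0.901% (3 cells) of cells with *Trpm5*, a differentiated type taken as background, at median depths of 6354 and 6239 UMIs. At E16.5 24.2% of cells passed for mitotic genes (95% exact binomial interval 22.5 to 25.9) and 14.6% for replication genes, at P0 11.9% and 6.71%, and at 1 year 2.34% and 1.78% in WT and 1.25% and 1.89% in the transgenic animal. These 1-year shares lay within the 95% exact binomial intervals of the *Trpm5* cells (1.04 to 4.68 for mitotic, 0.186 to 2.61 for replication genes). Those intervals treat pooled cells of all ages and animals as replicates, and few of these cells came from the 1-year animals. The comparison therefore cannot decide whether the 1-year shares differ from the background. The mitotic share of *Trpm5* cells rests on female A, who gave 4 of the 8 cells (4 of 45); without her, an alternative added after the data were seen, it was 1.39% (0.380 to 3.52). None of the 6 and 27 *Trpm5* cells of the 1-year animals passed for mitotic genes, for which the exact intervals reach 45.9% and 12.8%. At P28 WT the share for mitotic genes was 4.95%, 6.84%, 5.56% and 8.23% (6.39 ± 1.46, SD, n = 4), and for replication genes 2.68%, 4.50%, 3.34% and 8.91% (4.86 ± 2.81). The P28 transgenic animals gave 3.90% and 6.87% (mitotic) and 2.48% and 5.41% (replication). The transgenic minus WT difference was -1.01 percentage points for mitotic genes (exact permutation test, two-sided p = 0.667) and -0.916 for replication genes (exact permutation p = 0.933), in a design whose smallest possible p is 0.133. Without thymocyte-marked cells the differences were -0.516 for mitotic and 0.223 for replication genes. Leaving out 1 animal in turn gave -2.49 to 0.474 for mitotic and -2.38 to 0.549 for replication genes, so that the direction rests on single animals. Cells that passed for both lists were 26.7% of mitotic cells at E16.5, 27.8% at P0 and 17.6% to 32.7% at P28 WT, so that most cells with mitotic transcripts did not also pass for replication. The cut is a range and not a cell type: in P28 WT animals 463 cells held 2 mitotic UMIs and 180 held 3. Without thinning, 30.1% of cells without *Trpm5* and 31.5% of cells with it passed for mitotic genes.

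The last question was which TECs cycle at P28. Cells were divided by at least 1 UMI, after thinning, of *Psmb11*, the cortical proteasome gene that also marks embryonic progenitors, of *Krt5*, a keratin of medullary cells, or of *Aire*, which drives expression of tissue antigens in medullary cells. Cells with and without a gene were compared within the 4 P28 WT animals, with the animal as block. A part of both lists was higher in *Krt5* cells. Of replication genes 5 of 22 were higher, where 11.1% of all 16649 genes tested were: *Tk1* (1.03 ± 0.21), *Mcm5* (0.78 ± 0.22), *Mcm4* (0.69 ± 0.15), *Mcm7* (0.69 ± 0.18) and *Tcf19* (0.56 ± 0.16), on the log2 scale. *Tk1*, thymidine kinase, stood at 24.1, 40.6, 50.9 and 67.5 CPM in cells with *Krt5* and at 8.22, 21.1, 21.01 and 58.3 in cells without it, higher in 4 of 4 animals (adjusted p = 0.0164, edgeR). Of mitotic genes 9 of 29 were higher, from *Iqgap3* (0.61 ± 0.18) and *Cenpe* (0.54 ± 0.12) to *Ube2c* (0.34 ± 0.07) and *Cenpf* (0.28 ± 0.08); *Mki67* (0.24 ± 0.12) did not pass. By the summed level, *Krt5* cells were higher in 3 of 4 animals for both lists, and lower in female B (1004 against 1110 CPM for replication and 1059 against 1077 for mitotic genes). Without thymocyte-marked cells 16 and 14 were higher, where 14.6% of all genes were, and the summed replication level was higher in *Krt5* cells in 4 of 4 animals: 524.2, 723, 627.1 and 853 against 338, 467, 388.5 and 551.6 CPM. The mitotic sum in these unmarked cells was higher in 3 of 4 animals, and 735 with against 746 without *Krt5* in the non-barcoded male. With every cell thinned to 1000 UMIs, 1 replication and 1 mitotic gene were higher. Thymocyte-marked cells were 0.528% to 11.9% of *Krt5* cells and 1.63% to 22.9% of the others. Leaving out single animals moved the counts to between 0 and 12 (replication; 12 without female B, 0 without the barcoded male or female A) and between 0 and 9 (mitotic; 0 without the barcoded male). *Ccnd1* also rose in these cells, by 1.43 ± 0.09.

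In *Aire* cells a part of the replication genes was lower by summed transcripts, whereas no mitotic gene passed the test and shares of cells differed in direction between animals for replication genes. Of replication genes 12 of 22 were lower, where 14.9% of all 16510 genes tested were. *Tk1* stood at 6.65, 12.9, 20.7 and 27.9 CPM in cells with *Aire* and at 16.4, 36.5, 44.8 and 72.5 in cells without it (log2 fold change -1.33 ± 0.12, adjusted p = 0.00025, edgeR). *Cdc6* (-1.26 ± 0.41), *Chaf1b* (-0.95 ± 0.24), *Cdt1* (-0.94 ± 0.17), *Mcm6* (-0.83 ± 0.14), *Mcm5* (-0.82 ± 0.16), *Mcm2* (-0.79 ± 0.15), *Mcm7* (-0.78 ± 0.13), *Rrm1* (-0.75 ± 0.14), *Mcm4* (-0.66 ± 0.14), *Mcm3* (-0.57 ± 0.15) and *Lig1* (-0.51 ± 0.11) were also lower. *Pcna* (-0.26 ± 0.12) and *Rrm2* (-0.17 ± 0.20) did not pass. Mitotic genes had a median of 0.01 (1 had an unadjusted p below 0.05, and DESeq2 called 0); *Cdk1* had the highest estimate (0.48 ± 0.21), at 91.9, 81.6, 92.2 and 123 CPM with and 34.3, 87.4, 86.6 and 83.6 without *Aire*. Without the non-barcoded male 7 mitotic genes were lower, a count with no share of all genes beside it. The summed mitotic level was 1280 with and 620 without *Aire* in the non-barcoded male. It was 720, 742 and 876 with and 907, 879 and 1122 without in the barcoded male, female A and female B. In unmarked cells it was 1317 with and 615 without *Aire* in the non-barcoded male and 917 and 809.6 in female B, both higher with *Aire*, and 718 and 814 in the barcoded male and 751 and 821 in female A, both lower. Without thymocyte-marked cells 8 replication genes were lower (15.1% of all genes). The replicative helicase genes *Mcm2*, *Mcm4*, *Mcm5*, *Mcm6* and *Mcm7* were among the 8. Cells with *Aire* were deeper, with a median of 5408 to 15728 UMIs by animal against 3849 to 9071 without it. With every cell thinned to 1000 UMIs, 3 replication genes were lower and 1 mitotic gene higher. The share of cells that passed for replication genes was 4.24% with and 5.02% without *Aire* (means of 4 animals, higher with *Aire* in 2 of 4), and 4.31% and 3.59% without thymocyte-marked cells (higher in 3 of 4). For mitotic genes it was 7.41% and 6.25% (higher in 3 of 4), and 7.68% and 5.50% without marked cells (higher in 4 of 4). Of the 50 mitotic pathway genes that are no members, 24 estimates were above and 26 below 0, with a median of -0.02. The phosphatase gene *Cdc25c*, the 1 of them with the highest estimate, rose by 1.50 ± 0.18.

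The *Psmb11* comparison depended on thymocyte-marked cells. In all cells 2 of 22 replication genes were higher, *Cdc6* (0.92 ± 0.29) and *Rrm2* (0.57 ± 0.15), near the 10.9% of all 15716 genes tested that were. Of the mitotic genes 1 of 29, *Cdk1*, was lower (-0.75 ± 0.15), where 13.6% of all genes were. Without thymocyte-marked cells 6 replication and 17 mitotic genes were lower, where 11.8% of all genes were, and none was higher. Then *Mki67* was at -0.87 ± 0.18, *Top2a* at -0.96 ± 0.26 and *Cdk1* at -1.11 ± 0.24 on the log2 fold change scale. The mitotic sum in unmarked cells was 206.975, 337, 756 and 538 CPM with *Psmb11* and 770, 823, 813 and 893 without it, lower in 4 of 4 animals. In all cells the mitotic sum was 352, 1020, 957 and 836 CPM with and 764, 862, 842 and 1121 without *Psmb11*. It was thus higher with *Psmb11* in the barcoded male and female A, and lower in the non-barcoded male and female B. The share of cells that passed for mitotic genes was 4.71% with and 6.58% without *Psmb11* (means of 4 animals, lower with *Psmb11* in 4 of 4), and 2.76% and 6.13% without marked cells (lower in 4 of 4). Marked cells were 3.03%, 16.6%, 5.65% and 17.7% of *Psmb11* cells. *Psmb11* cells were few at P28, with 99, 295, 124 and 288 of them.

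**Figure D5:**
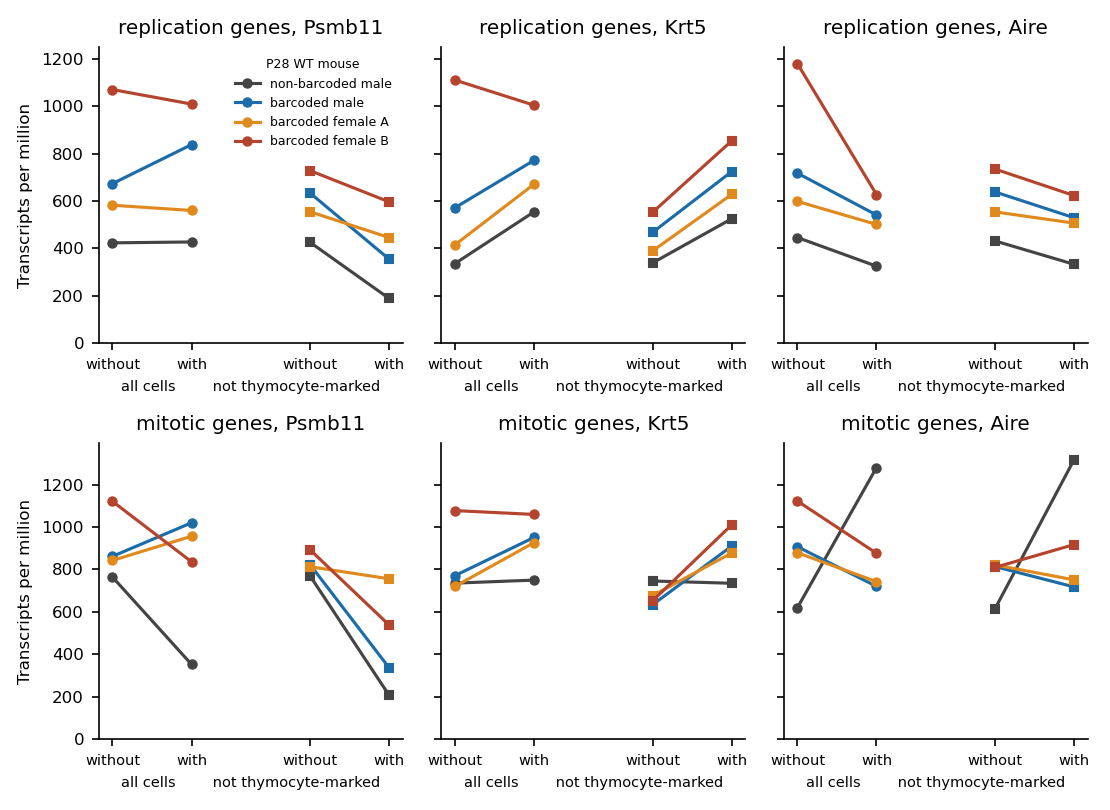
Summed CPM of replication (top) and mitotic genes (bottom) in cells without and with *Psmb11*, *Krt5* or *Aire*, one line per P28 WT animal; circles are all cells and squares cells without thymocyte marking. In unmarked cells the replication sum is higher with *Krt5* in 4 of 4 animals, and the mitotic sum is lower with *Psmb11* in 4 of 4.

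The classes were then set side by side at the other ages, with 1 animal per age and genotype. At E16.5 *Psmb11* marked 50.7% of cells, and 16.4% of these passed for mitotic genes (95% exact binomial interval 14.4 to 18.5) against 32.2% (29.6 to 34.9) of cells without it. For replication genes the shares were 9.39% and 19.9%. At P0 the mitotic shares were 7.48% and 17.2%, also lower in *Psmb11* cells. Without thymocyte-marked cells they were 16.4% and 32.2% at E16.5 and 6.73% and 17.03% at P0. In the 1-year WT female the mitotic share was 6.25% (8 of 128 cells, 2.74 to 11.9) in *Psmb11* cells and 2.004% (1.36 to 2.85) in the others. Without marked cells it was 4.92% (6 of 122 cells, 1.83 to 10.4) and 1.96% (1.32 to 2.80), with intervals that overlapped, and the summed mitotic level was then lower in *Psmb11* cells, at 361.3 against 426 CPM. The replication shares were 0.781% with *Psmb11* (1 of 128 cells) and 1.87% without it, so that no order of these classes was read from this animal. In the 1-year transgenic male the mitotic shares were 1.01% and 1.26%. *Krt5* cells passed for mitotic genes in 23.96% at E16.5 and 11.3% at P0, against 24.3% and 12.1% of cells without *Krt5*, within the intervals (20.8 to 27.4 and 22.3 to 26.3 at E16.5). *Krt5* marked 79.5% of cells of the 1-year WT female and 88.7% of the 1-year transgenic male, where 2.40% and 1.03% of *Krt5* cells passed for mitotic genes. *Aire* cells of the 1-year transgenic male passed in 8 of 93 cases (8.60%, 3.79 to 16.2), against 1.01% of its cells without *Aire*; without marked cells the shares were 7.69% and 0.951%. In the 1-year WT female 3.797% (3 of 79 cells, 0.790 to 10.7) of *Aire* cells passed against 2.26%, at E16.5 25% (12.7 to 41.2) against 24.2%, and at P0 11.8% (1.46 to 36.4) against 11.9%, so that a difference was not detectable with so few *Aire* cells. These intervals cover counting error only, and with 1 animal per age no test was made.

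Within the classes the transgene was compared again at P28. In *Psmb11* cells 1 of 22 replication and 1 of 28 mitotic genes tested were lower in transgenic animals, near the 3.61% of all genes tested that were. They were *Uhrf1* (-1.57 ± 0.33, adjusted p = 0.0318, edgeR) and the centromere histone gene *Cenpa* (-2.15 ± 0.36, adjusted p = 0.017, edgeR). The transgenic animals held 51 (non-barcoded male) and 1073 (barcoded female) *Psmb11* cells. No member passed without thymocyte-marked cells, which were 3.03% to 17.7% of WT and 0% and 6.80% of transgenic *Psmb11* cells. In *Krt5* cells no member passed (0.0176% of all genes did), with 1 of 51 below an unadjusted p of 0.05 and 0 called by DESeq2. In *Aire* cells no member of either list and no gene of the 14404 tested passed, although 20 of 22 replication estimates were above 0 (median 0.57, all genes -0.02) and 5 had an unadjusted p below 0.05. In *Aire* cells 2 mitotic genes also had an unadjusted p below 0.05, DESeq2 called 0 members, and *Mcm6* had the highest estimate (1.27 ± 0.33, adjusted p = 0.593, edgeR). Without thymocyte-marked cells no member passed in *Krt5* or *Aire* cells. The replication sum in *Aire* cells was 550 and 758 CPM in transgenic and 325, 541, 500.6 and 626.8 in WT animals, so that the groups overlapped.

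Cells sorted by the cortical marker Ly51 or the lectin UEA-1, which binds medullary cells, were measured in some animals. Ly51+ cells passed for mitotic genes in 10.5% of cases in P28 WT female A (95% exact binomial interval 6.36 to 16.1) and 16.1% in female B (10.9 to 22.5), against 5.56% and 8.23% of unsorted cells. In the non-barcoded male the shares were 5.77% (Ly51+), 2.69% (UEA-1+) and 4.95% (unsorted). Ly51+ cells of the 1-year WT female went the other way, at 0.546% (0.0138 to 3.01) against 2.34%. UEA-1+ cells of the P0 female passed in 15.2% (12.04 to 18.9) against 11.9% (10.3 to 13.8). For replication genes Ly51+ cells passed in 9.94% and 12.5% in females A and B against 3.34% and 8.91% of unsorted cells, in 2.24% against 2.68% in the non-barcoded male, and in 0% against 1.78% in the 1-year WT female, where the exact interval of the 0 cells reaches 1.996%. UEA-1+ cells passed for replication genes in 3.08% in the non-barcoded male and in 10.3% at P0, against 6.71% of unsorted cells there. Thymocyte marking was not taken into account in these sorted cells.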

How the data were processed

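Per the labels and the study's methods, single TECs were sorted into wells, CEL-Seq2 libraries were sequenced, and the authors demultiplexed with bcl2fastq 2.17.1.14 and aligned with BWA 0.6.2-r126 to VM9 gene models with isoforms and overlapping loci merged; reads on the sense strand were counted and multimappers discarded. The deposited values are estimated counts of transcripts, which the authors computed from UMI counts by a correction for 4096 possible barcodes, one value per gene and cell; whole UMIs were recovered from them. Of 380 libraries 378 were used (2 were left out because no set of 96 columns held at least 80% of the counts). Cells with at least 3000 (E16.5, P0, 1-year transgenic), 1500 (P28) or 1000 (1-year WT) transcripts and at most 2% *Kcnq1ot1* were kept. Sorting was for 1 cell per well, no doublet caller was run, and wells that held more than 1 cell were not looked for. Levels are transcripts per 1000000 (CPM) summed over the unsorted cells of an animal, without spike-ins, mitochondrial genes and *Hprt*.

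Sums per animal, rounded, were tested with edgeR 4.0.16 (quasi-likelihood, TMM, filterByExpr, Benjamini-Hochberg over all genes tested, adjusted p below 0.05) in R 4.3.3; SE is the log2 fold change over the root of F. One fit held all 10 animals, with protocol as covariate and 3 residual degrees of freedom; cells with and without a gene were compared within the 4 P28 WT animals, with the animal as block, because both sums come from the same animal. DESeq2 1.42.0 was an alternative. Unadjusted p-values below 0.05 were counted for members only, so that no share of all genes stands beside those counts. Most counts under the alternatives, such as those without single animals or by DESeq2, likewise stand without such a share. Shares used cells thinned to 1000 UMIs and exact tests in scipy 1.17.1. Intervals cover counting error only. The scripts were tested on simulated counts with known changes. They recovered 67.5% of changed genes for the P28 transgenic comparison, 34.5% for E16.5 and 94.5% for *Krt5* cells. False calls were 4.26%, 6.76% and 2.07% of the calls. A gene that did not pass with 1 animal in an arm may therefore still have changed. The members and lists were chosen with earlier results of these data known. Named genes were 14 set members and the 5 highest and 5 lowest of each comparison, and of pathway genes outside the members at most the 3 largest changes. Alternatives left out single animals, thymocyte-marked cells and the 4 biological-replicate libraries, and changed the filter, normalization, covariate, block, depth and thresholds.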

Additional observations from a re-analysis of the deposited data

Results flagged for a closer look

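In 5 of 71 groups of 4 P28 WT values (7.04%; chance gives about 1 in 20), 1 animal stood far from the other 3. Female B was high for *Mcm10* at 9.64 CPM (others 5.39 to 5.65), *Lig1* at 70.2 (43.6 to 43.8), *Rrm1* at 55.97 (31.98 to 35.7) and *Cdt1* at 26.7 (14.2 to 15.7), and 16.99% of its cells were thymocyte-marked. The non-barcoded male was low for *Cdk1*, at 44.9 (86.1 to 92.2), and was the P28 WT animal of the whole-volume protocol.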

How the results depend on the processing

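Without thymocyte-marked cells E16.5 gave 20 replication genes, P0 1 replication and 7 mitotic, 1-year transgenic 8 mitotic, *Krt5* 16 and 14, and *Aire* 1 mitotic (*Nusap1*, higher). *Psmb11* then gave 6 replication and 17 mitotic genes, all lower, and transgenic *Psmb11* cells 0 and 0. The 2 replication genes higher in all *Psmb11* cells, *Cdc6* and *Rrm2*, were not among the 6 and did not pass, at 0.26 and -0.22. *Mcm5* and *Top2a* in *Psmb11* cells were then at -0.69 and -0.96. The replication share difference was then 0.223, and female B stood at 707 and 836 CPM. With DESeq2, 1-year transgenic gave 23 mitotic, 1-year WT 3 and 6, *Krt5* 8 and 5; with DESeq2 size factors P0 gave 1 mitotic. Without the low filter, 1-year transgenic gave 17 mitotic, 1-year WT 1 mitotic, P0 1 mitotic, *Krt5* 10 replication, *Psmb11* 5 mitotic, and transgenic cells 1 (*Aire*) and 3 (*Psmb11*) replication. Without the protocol covariate, 1-year transgenic gave 0 mitotic, E16.5 4 replication, P0 0 mitotic and transgenic *Psmb11* cells 0 and 0. Thinned cells gave 12 (1-year transgenic), 1 (1-year WT) and 6 (P0) mitotic, *Aire* 3 and 1, *Krt5* 1 and 1, *Psmb11* 0 and 0, and transgenic *Psmb11* cells 0 and 0; thinning moved the median of all genes at E16.5 from -0.34 to -0.06. With only the groups compared, 1-year WT gave 1 and P0 7 mitotic; that fit was not run for 1-year transgenic. Without the 4 biological-replicate libraries P0 gave 1 mitotic. Without the replicate block *Aire* gave 2 replication, *Krt5* 0 and 0, *Psmb11* 0 and 0. With at least 2 UMIs *Krt5* gave 9 replication, *Psmb11* 0, and transgenic *Psmb11* cells 0 and 0; with only that gene of the 3, *Aire* gave 6, *Krt5* 2 and 3, *Psmb11* 0 and transgenic *Psmb11* cells 0 replication. At 5 UMIs the mitotic share difference was 0.0349. The mean over cells gave mitotic levels of 2359 (E16.5), 1069 (P0), 530, 666, 628.7 and 808 (P28 WT) and 400.6 (non-barcoded transgenic male).

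Leaving out 1 animal in turn gave, for replication genes, 5 to 13 (E16.5), 8 to 11 (*Aire*), 0 to 12 (*Krt5*), 0 to 2 (*Psmb11*), 0 to 1 (transgenic *Psmb11* cells) and 0 to 0 elsewhere; for mitotic genes 26 to 29 (E16.5), 0 to 7 (P0), 0 to 2 (1-year WT), 0 to 18 (1-year transgenic), 0 to 7 (*Aire*), 0 to 9 (*Krt5*), 1 to 2 (*Psmb11*) and 0 to 4 (transgenic *Psmb11* cells). *Top2a* with *Aire* ranged from -0.41 (without the non-barcoded male) to 0.20. Share differences ranged from -2.38 to 0.549 (replication) and from -2.49 to 0.474 (mitotic). The cause of these changes was not tested. Apart from shares given above, the counts of this section stand without the share of all genes called in the same fit. They show how the counts depend on the processing and are no result about the members.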
